A study of Mus musculus with 35 samples.

Results

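The change in gene expression that went with the Smad4 label was compared between primary pancreatic tumors and liver metastases grown from the same kind of mouse cells. Of the 35 RNA-seq libraries in the series, the 11 taken on day 14 from these organs entered the comparison, namely 2 from the pancreas labeled Smad4OFF, 3 from the pancreas labeled Smad4ON, 3 from the liver labeled Smad4OFF and 3 from the liver labeled Smad4ON. They were chosen by organ and day alone, and every gene with enough counts was tested, 16938 of the 53465 in the table. The value of interest was a difference of differences, the log2 fold change in liver (labeled on over labeled off) minus the log2 fold change in pancreas, so that a positive value means a higher response in the liver.

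The cells were lines derived from pancreatic ductal adenocarcinoma (PDAC) of KC-shSmad4 mice. In these mice Ptf1a-Cre, active in pancreatic progenitors, switches on a reverse tetracycline transactivator with an mKate2 reporter, and a short hairpin RNA against Smad4 is expressed as long as doxycycline (Dox) is fed. All 4 groups therefore carried the Cre, the transactivator and the hairpin. The labels do not say which line, clone or hairpin gave a library. Cells also carried firefly luciferase. Foxn1nu females aged 6 to 8 weeks, which lack mature T cells, were kept on Dox chow and received 1e+05 cells in the tail of the pancreas or 4e+05 cells in the spleen, which was then removed. In the Smad4ON arm Dox was withdrawn 4 weeks (pancreas) or 5 weeks (liver) after injection, and mKate2+ cells were sorted 14 days later. Organ was thus tied to the cell number, the route and the age of the tumor, which cannot be told apart here.

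Smad4 mRNA went against the labels. In the pancreas it stood at 101 and 110 normalized CPM (counts scaled to a common library size) in the libraries labeled off and at 18.7, 22 and 21.3 CPM in those labeled on. In the liver it stood at 150, 91.9 and 101 CPM in the libraries labeled off and at 15, 15.3 and 14.5 CPM in those labeled on. All 6 libraries labeled on were below all 5 labeled off, so "labeled on" and "labeled off" are used throughout, and every fold change is labeled on over labeled off. The fall in labeled-on cells was 5.11-fold in pancreas and 7.67-fold in liver (adjusted p = 0.00289 and 0.000362, edgeR), and these sizes differed by -0.58 on the log2 scale (95% interval -1.17 to 0.00), which was not called. If the on and off labels had been exchanged, every fold change and every difference given here would turn its sign.

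SMAD4 is the shared partner of the receptor-activated SMADs. After TGF-beta or activin binds its receptors, the receptor SMADs are phosphorylated, join SMAD4 and bind DNA at short SMAD boxes, usually beside other transcription factors that differ between tissues. In epithelial cells the pathway is known for slowing the cell cycle and for inducing extracellular matrix and mesenchymal genes, and loss of SMAD4 is frequent in human PDAC.

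Library size ranged from 12200163 to 36142368 counts, so 3 counts, taken as the detection floor, correspond to 0.083 to 0.246 CPM. In the pancreas the size moved with the label, with 28557488 and 32195795 counts in the labeled-off libraries and 12200163 to 14255679 in the labeled-on ones, and its part in the results was not tested. Replicates of a pancreas group correlated at 0.98 to 0.993 (log2 CPM), while those of a liver group correlated at 0.906 to 0.963. All 10 carcinoma markers were counted in each library, with a summed level of 4740 to 8810 CPM in pancreas and 15300 to 17200 CPM in liver. The summed level of 13 fibroblast and stellate cell markers was 9210 to 18700 CPM in pancreas and 245 to 4270 CPM in liver. That of 16 acinar markers was 1430 to 4870 CPM against 222 to 902 CPM, where Reg1 alone gave 213 to 892 CPM in liver and Cela1 gave 5.52 to 12.9 CPM. Among the 11 libraries, 2 had counts for the mitochondrial gene mt-Co3, the third replicate of each liver group. Fewer cells of a type and less RNA per cell cannot be told apart in bulk samples.

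No gene was called as responding differently in the 2 organs when a difference of over 2-fold and a Benjamini-Hochberg adjusted p under 0.05 in edgeR's quasi-likelihood test were required (0% of 16938 genes). At an unadjusted p under 0.05 there were 701 genes, 280 higher in the liver response and 421 lower. They were 1.65% and 2.49% of the genes, 4.14% together, below the 5% that the threshold itself allows. DESeq2 called 40 genes (0.277% of the 14435 it gave an adjusted p), 8 higher (0.0554%) and 32 lower (0.222%), and limma voom called 1. Genes are therefore described below by their values, and none of them is a call in edgeR.

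The number of genes called for the responses themselves depended on the tool. In the pancreas edgeR called 45 genes that rose (0.266%) and 1 that fell (0.0059%), 0.272% together, while 10.4% had an unadjusted p under 0.05. In the liver 13 rose (0.0768%) and 34 fell (0.201%), 0.277% together, while 16% had an unadjusted p under 0.05. DESeq2 called 329 genes in the pancreas (292 higher, 37 lower) and 619 in the liver (250 and 369), and limma voom called 990 (698 and 292) and 78 (27 and 51). The pancreas libraries fitted alone in edgeR gave 661 (482 and 179), and the liver libraries alone gave 0, with 1447 at an unadjusted p under 0.05. Over all 16938 genes the signs in the organs were opposite for 5897. Of the 46 genes that edgeR called in the pancreas, 45 had the same sign in the liver and 41 of these had an unadjusted p under 0.05 there. Of the 47 called in the liver, 46 had the same sign in the pancreas and 35 had an unadjusted p under 0.05. The genes called in both numbered 9, which is 19.6% of the pancreas calls and 19.1% of the liver calls. These counts changed as single libraries were left out. Without either labeled-off pancreas library no gene was called in the pancreas, and the liver count ran from 9 to 434 as each of the 11 libraries was left out.

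**Figure D1:**
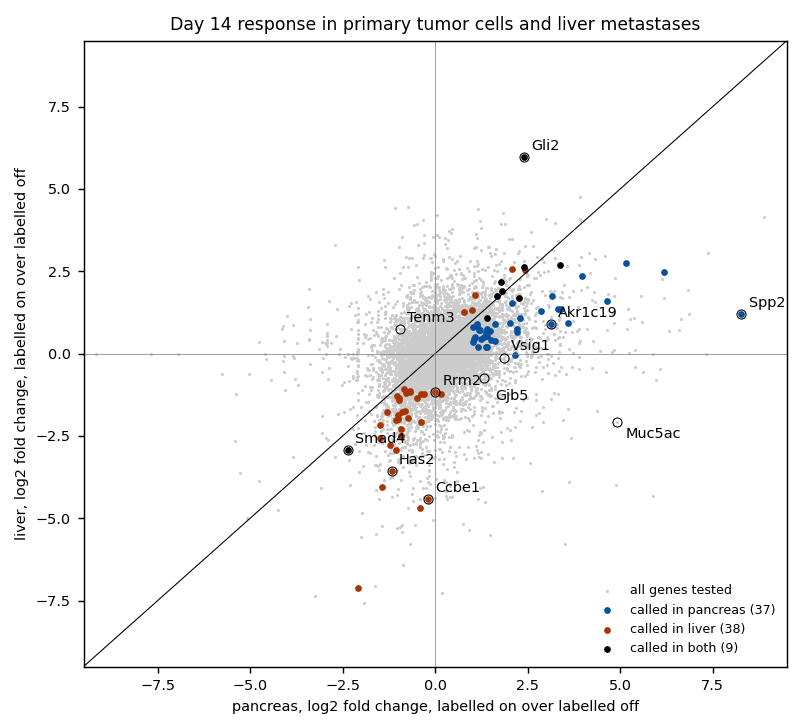
Log2 fold change of every tested gene (labeled on over labeled off) in the pancreas, x axis, and in the liver, y axis, at day 14. Points called in the pancreas alone (37), in the liver alone (38) or in both (9) are colored, and the line marks equal responses. Gli2 stands above the line and Muc5ac and Spp2 far below it. The position of Spp2 depends on the prior count, since its labeled-off pancreas libraries held no counts.

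The 9 genes called in both organs, named after their values were seen, were Smad4, Gli2, Muc13, Spink4, Slc9a4, Slc29a3, Gstm5, Pax9 and Adgrg1. Muc13, a cell surface mucin of gut epithelium, stood at 34.6 and 39.9 CPM in labeled-off pancreas, 233, 182 and 177 in labeled-on pancreas, 157, 171 and 203 in labeled-off liver, and 1430, 654 and 1230 in labeled-on liver. Every labeled-on library lay above every labeled-off library of its organ. The fold was 5.29 in pancreas and 6.23 in liver, a log2 difference of 0.24. Slc9a4, a sodium-proton exchanger of gastric parietal cells, rose from 2.33 ± 0.17 (SD, n = 2) to 11.3 ± 2.51 CPM (n = 3) in pancreas and from 30 ± 8.31 (n = 3) to 96.5 ± 24.7 CPM (n = 3) in liver. Spink4, a protease inhibitor of mucus-secreting cells, rose from 2.57 ± 0.244 (n = 2) to 26.7 ± 9.08 CPM (n = 3) in pancreas and from 16.3 ± 6.72 (n = 3) to 106 ± 38.2 CPM (n = 3) in liver. Among these 9 genes Gli2 alone had an unadjusted p under 0.05 for the difference between organs.

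The genes described for the difference itself are from the 12 that made up the 6 of lowest p in each direction among those differing by over 2-fold, and 11 of them are given. Tenm3, Gli2, Gpc4, Erdr1, Syngr3 and Dpp7 were higher in the liver response. Akr1c19, Spp2, Gjb5, Ldhd and Muc5ac were lower. RefSeq promoter windows (GRCm38.p6) were at hand for 8 of them, and the windows of the first 2 genes of each direction are shown because SMAD4 is a DNA-binding factor. Each run starts 250 bases before the RefSeq start and stops at the first base that the GENCODE annotation calls exon. The RefSeq starts of Tenm3 and Akr1c19 lie inside the longer gene given by GENCODE. Capitals mark the SMAD box CAGAC or its reverse complement GTCTG.

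Tenm3, chr8:48674723-48674940, minus strand: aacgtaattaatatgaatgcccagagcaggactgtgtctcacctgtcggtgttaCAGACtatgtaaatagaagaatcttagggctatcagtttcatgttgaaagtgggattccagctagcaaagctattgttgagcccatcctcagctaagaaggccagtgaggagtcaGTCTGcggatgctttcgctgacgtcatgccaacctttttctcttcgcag
Gli2, chr1:119053620-119053869, minus strand: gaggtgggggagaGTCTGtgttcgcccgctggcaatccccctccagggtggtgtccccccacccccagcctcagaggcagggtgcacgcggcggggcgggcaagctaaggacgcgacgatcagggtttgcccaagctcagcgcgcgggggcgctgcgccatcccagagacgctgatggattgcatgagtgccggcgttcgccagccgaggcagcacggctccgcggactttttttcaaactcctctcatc
Akr1c19, chr13:4233490-4233732, plus strand: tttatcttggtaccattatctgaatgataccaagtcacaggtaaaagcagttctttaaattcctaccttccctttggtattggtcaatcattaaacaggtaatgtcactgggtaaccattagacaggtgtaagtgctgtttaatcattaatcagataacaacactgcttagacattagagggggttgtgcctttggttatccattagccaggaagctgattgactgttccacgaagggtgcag
Spp2, chr1:88406760-88406960, plus strand: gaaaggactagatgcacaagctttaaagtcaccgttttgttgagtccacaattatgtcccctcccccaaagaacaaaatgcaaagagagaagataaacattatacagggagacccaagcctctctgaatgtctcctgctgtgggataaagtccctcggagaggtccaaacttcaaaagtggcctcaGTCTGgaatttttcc

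The window of Tenm3 held 2 SMAD boxes, starting 196 and 81 bases before the start, and those of Gli2 and Spp2 held 1 each, at 237 and 64 bases. That of Akr1c19 held none. Over the 8 windows, 4 held the box, beside 42.2% of 32851 RefSeq promoter windows of 250 bases. The match is a description of the letters and not of binding. The Gli2 window was 67.2% G or C and held the KLF box CACCC or GGGTG 3 times. That box was present in 5 of the 8 windows, beside 52% of all windows, and 20.7% of all windows held it 2 or more times.

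Gli2 (chromosome 1, 118834132 to 119053619, minus strand), a transcription factor that carries the Hedgehog signal, stood at 4.61 and 5.45 CPM in labeled-off pancreas and at 34.2, 22.6 and 23 CPM in labeled-on pancreas. In the liver it stood at 0.22, 0.56 and 0.923 CPM in the labeled-off libraries and at 36.1, 35 and 31.1 CPM in the labeled-on ones. The labeled-on levels of the organs lay close together, and the labeled-off level was lower in every liver library than in both pancreas libraries. The 3 labeled-off liver libraries held 40 counts of Gli2 together. The rise was 5.29-fold in pancreas (adjusted p = 0.0469, edgeR) and 62.2-fold in liver (adjusted p = 0.000508, edgeR). The difference was 3.56 ± 0.53 (log2, SE, 95% interval 2.38 to 4.73, adjusted p = 0.184, edgeR). Its value lay between 3.13 and 4.14 under every alternative that gave one.

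Tenm3, a teneurin of cell adhesion, and Gpc4, a glypican that holds growth factors at the cell surface, had log2 changes of opposite sign in the organs, and none of these changes was called. Tenm3 (chromosome 8, 48227682 to 48843951, minus strand) stood at 209 and 241 CPM in labeled-off pancreas and at 120, 114 and 113 CPM in labeled-on pancreas. In the liver it stood at 25.4, 17.1 and 18.1 CPM labeled off and at 31, 31.3 and 39.6 CPM labeled on. The label groups did not overlap in either organ, and all pancreas libraries were above all liver libraries. The difference was 1.71 ± 0.25 (log2, 95% interval 1.15 to 2.27, adjusted p = 0.184, edgeR). Gpc4 had means of 66.5 ± 3.66 (n = 2) and 37.2 ± 3.03 CPM (n = 3) in pancreas and of 5.28 ± 1.99 (n = 3) and 8.4 ± 0.787 CPM (n = 3) in liver, labeled off and on. Its difference was 1.51 ± 0.34 (adjusted p = 0.873, edgeR). Both genes had a level several times higher in the pancreas libraries, where fibroblast markers were also higher, and the part of those cells was not tested.

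Dpp7, a lysosomal dipeptidyl peptidase, was higher in all 3 labeled-on liver libraries (17.8, 15.5 and 19.1 CPM) than in the labeled-off ones (8.2, 8.81 and 10.5 CPM), whereas the pancreas libraries overlapped between labels (11.3 to 17.1 CPM). The difference was 1.15 ± 0.27 (adjusted p = 0.873, edgeR). Erdr1 had a difference of 1.14 ± 0.26, with 22.3 and 23 CPM in labeled-off pancreas against 11 to 13.8 CPM in labeled-on pancreas. It lies in the region shared by the sex chromosomes, so reads of its copies cannot be separated and its level is uncertain. Syngr3, a synaptic vesicle protein, had at most 0.664 CPM in any library, close to the floor, with a difference of 4.02 ± 0.94.

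Among the genes lower in the liver response, Akr1c19 and Ldhd shared a shape: low in labeled-off pancreas alone. Akr1c19 (chromosome 13, 4228700 to 4252843, plus strand), an aldo-keto reductase, stood at 3.61 and 3.29 CPM in labeled-off pancreas and at 37.8, 22.6 and 30.4 CPM in labeled-on pancreas. It stood at 36.7, 48.6 and 53.7 CPM in labeled-off liver and at 71.7, 83.2 and 102 CPM in labeled-on liver. The label groups did not overlap in either organ. The ratio was 8.78 in pancreas (adjusted p = 0.00289, edgeR) and 1.85 in liver (adjusted p = 0.0869, edgeR), a difference of -2.25 ± 0.33 (95% interval -3.00 to -1.50, adjusted p = 0.184, edgeR). Reads of its near relatives in the same gene cluster may have been split by the counting, so its level is uncertain. Ldhd, the mitochondrial D-lactate dehydrogenase, rose from 9.41 ± 0.0844 (n = 2) to 28.8 ± 3.29 CPM (n = 3) in pancreas (adjusted p = 0.00565, edgeR) and had 45.8 ± 4.33 and 59.8 ± 6.65 CPM (n = 3 each) in liver. Its difference was -1.23 ± 0.20 (adjusted p = 0.255, edgeR).

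Gjb5 (chromosome 4, 127354809 to 127358181, minus strand), a connexin of epithelial gap junctions, had a positive log2 change in pancreas and a negative one in liver, neither of them called. Gjb5 stood at 3.61 and 3.68 CPM in labeled-off pancreas and at 10.7, 9.01 and 7.84 CPM in labeled-on pancreas. In the liver it stood at 13.9, 17 and 12.3 CPM labeled off and at 9.12, 9.24 and 7.34 CPM labeled on. The labeled-on levels of the organs overlapped, while the labeled-off levels lay on opposite sides of them. The difference was -2.08 ± 0.32 (95% interval -2.78 to -1.37, adjusted p = 0.184, edgeR).

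Muc5ac, the secreted gel-forming mucin of the stomach surface, and Spp2, a secreted phosphoprotein, were at or below the floor in labeled-off pancreas. Muc5ac held 2 counts over both labeled-off pancreas libraries and 48 over the 3 labeled-on ones, a ratio of 33.8 (exact binomial 95% interval 8.86 to 287, counting error only). The labeled-on pancreas libraries ran from 0.527 to 2.5 CPM (mean 1.19, SD 1.13), a spread which that interval does not cover. In the liver Muc5ac stood at 2.83, 1.19 and 4.41 CPM labeled off and at 0.693, 0.779 and 0.489 CPM labeled on. Those liver groups did not overlap and lay in the order opposite to the pancreas. Spp2 held 0 counts over the labeled-off pancreas libraries and 67 over the labeled-on ones, at least 31.4-fold higher against a floor of 3 counts over the group. It stood at 0.103 to 0.149 CPM in labeled-off and at 0.248 to 0.38 CPM in labeled-on liver. Adjusted p for the difference was 0.367 for Muc5ac and 0.184 for Spp2 (edgeR), and the fitted sizes depend on the prior count.

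**Figure D2:**
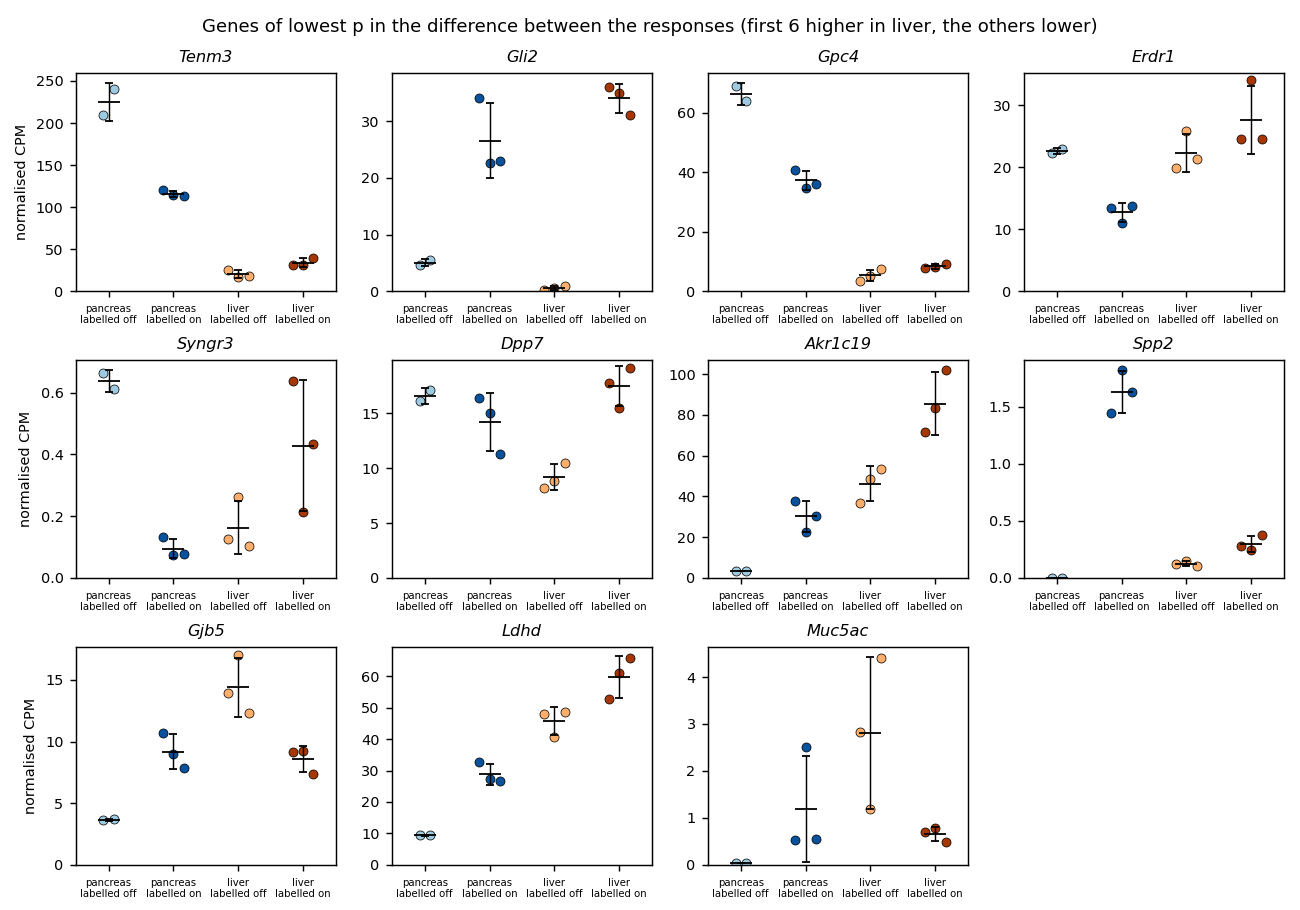
Normalized CPM (y axis, linear from 0) of 11 genes of lowest p in every library, by organ and label (x axis), with the group mean and SD. Akr1c19, Ldhd and Spp2 are lowest in labeled-off pancreas, Gli2 is lowest in labeled-off liver, and Gjb5 is highest in labeled-off liver.

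Over the 701 genes with an unadjusted p under 0.05 for the difference, the responses had opposite signs in the organs for 476. Another 128 had the same sign and a larger change in the pancreas, and 97 the same sign and a larger change in the liver. Since a difference picks opposite signs, this is a description of the genes picked. The 40 genes that DESeq2 called split in a like way, 26 with opposite signs. Of those 40, 15 moved over 2-fold in the pancreas alone, 7 in the liver alone and 10 in both. For the 701 genes these counts were 148, 155 and 105, and for all 16938 genes 1366, 1442 and 858. Among the 15 were Vsig1, Tspan15, Gclc and Sod3, named after their values were seen. Vsig1, a junctional adhesion protein of gastric epithelium, had 21.7 and 19.7 CPM in labeled-off pancreas against 61.9 to 87.9 CPM in labeled-on pancreas. Its liver libraries overlapped between labels (63.5 to 135 CPM). Sod3, the extracellular superoxide dismutase, had 6.78 and 7.93 CPM against 25.1 to 39.4 CPM in pancreas and 5.02 to 10.1 CPM over all 6 liver libraries.

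The 7 fibrogenic genes that the study named, among them Ccbe1, Has2, Il11, Itga5, Wisp1 and Col6a1, code for matrix components, matrix receptors and secreted signals. The study picked them in part from these libraries, so their direction is not independent evidence. All 7 had a negative difference, with a median of -1.39 beside -0.03 over all genes tested. At an unadjusted p under 0.05 there were 3, against 2.49% of all genes in that direction. Without the first labeled-off liver library all 7 were still negative, with a median of -1.17 and 2 at that threshold. Their median log2 fold change was -0.51 in pancreas and -1.90 in liver. In the liver 5 of the 7 were lower at an unadjusted p under 0.05, and edgeR called 2 of them, Ccbe1 and Has2.

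Ccbe1, a secreted matrix protein needed for lymphatic growth, stood at 14.4 and 13.6 CPM in labeled-off pancreas and at 8.36, 16 and 12.8 CPM in labeled-on pancreas, which overlapped. In the liver it stood at 66.8, 14.9 and 11.4 CPM labeled off and at 1.64, 1.35 and 1.36 CPM labeled on. The fall in liver was 21.3-fold (adjusted p = 0.0376, edgeR), and the difference was -4.23 ± 0.92 (95% interval -6.29 to -2.17, adjusted p = 0.836, edgeR). The first labeled-off liver library was far above the other 2. Without it the difference of Ccbe1 was -2.995 (adjusted p = 0.159, edgeR).

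Has2, the enzyme that makes hyaluronan, stood at 37.3 and 35.9 CPM against 12, 18 and 18.8 CPM in pancreas, and at 33.2, 9.96 and 11.2 CPM against 2.33, 0.744 and 1.47 CPM in liver. Label groups did not overlap in either organ, and the labeled-on level was 11.8-fold lower in liver and 2.25-fold lower in pancreas, where it was not called. The difference was -2.39 ± 0.76 (95% interval -4.09 to -0.70) with the first labeled-off liver library and -1.62 without it. Il11, a cytokine of the interleukin-6 family, had a difference of -2.81 ± 1.17 (95% interval -5.43 to -0.20). It stood at 34.7, 3.66 and 10.5 CPM in labeled-off liver and at 1.17 to 2.88 CPM in labeled-on liver, and without that first library its difference was -1.62, past the unadjusted threshold no longer. Itga5, Col6a1 and Wisp1 had differences of -0.91, -0.98 and -0.16, each with an unadjusted p over 0.05. The difference of Wisp1 was between -1.98 and 0.37 under the alternatives and changed sign.

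**Figure D3:**
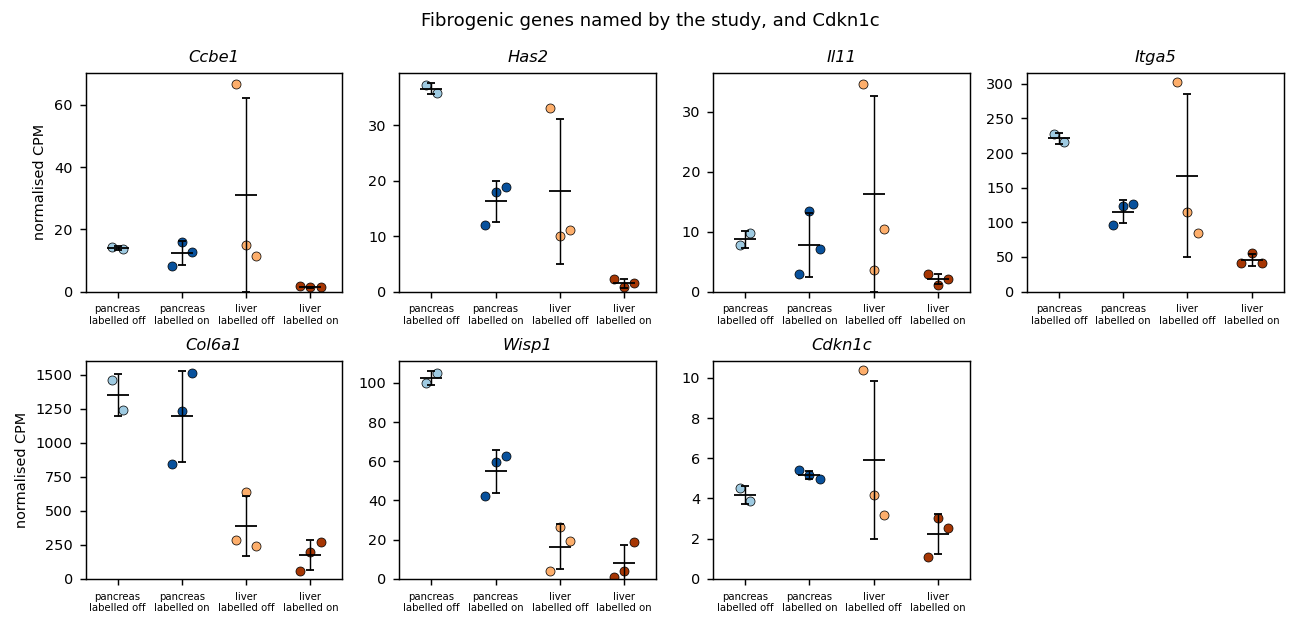
Normalized CPM (y axis, linear from 0) of 6 fibrogenic genes and Cdkn1c in every library, by organ and label (x axis), with the group mean and SD (bars end at 0). The first labeled-off liver library is the highest of its group for Ccbe1, Has2, Il11, Itga5 and Cdkn1c, and the labeled-on liver libraries of Ccbe1 and Has2 lie below every other library.

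Among the other genes that the study named, Cdkn1c alone had an unadjusted p under 0.05 for the difference. Cdkn1c, the cell cycle inhibitor p57, stood at 4.5 and 3.87 CPM against 5.4, 5.15 and 4.97 CPM in pancreas and at 10.4, 4.18 and 3.18 CPM against 1.11, 3.01 and 2.55 CPM in liver, labeled off and on. The difference was -1.72 ± 0.73 (95% interval -3.35 to -0.10) with all libraries. Without the first labeled-off liver library it was -1.04 and no longer past the unadjusted threshold. Runx3 had -1.03 ± 0.74. Id1, a target of bone morphogenetic protein signaling, had -0.58 ± 0.68, and Klf4, Klf5, Klf6, Runx1 and Runx2, transcription factors of epithelial and mesenchymal programs, lay between -0.32 and 0.15.

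Genes of the TGF-beta pathway itself were read by how many had an unadjusted p under 0.05 for the difference, beside 4.14% of all genes. Of 15 ligands and latent binders, 1 had an unadjusted p under 0.05, Inhba, which codes for the activin A subunit. It stood at 201 and 200 CPM against 84.2 to 110 CPM in pancreas and at 60.3 to 384 CPM against 17.2 to 19 CPM in liver (difference -2.28 ± 0.86, 95% interval -4.19 to -0.37). The first labeled-off liver library held the 384 CPM, and without it the difference was -0.99. Of 11 receptors 1 passed, the coreceptor Tgfbr3 (-1.29 ± 0.45). Of 7 SMAD genes and 13 feedback regulators none passed. Smad7, an inhibitory SMAD, had -0.38 ± 0.22 and Spsb1, which targets the type II receptor for degradation, had -0.37 ± 0.32. The medians were -0.25, 0.20, -0.38 and -0.04 for ligands, receptors, SMADs and feedback regulators.

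Most matrix and mesenchymal lists had negative medians, but not all. The 30 glycosaminoglycan synthesis enzymes had a median of 0.13, with 19 positive and 11 negative differences. Of these, 2 negative ones had an unadjusted p under 0.05. The 11 laminin chains had a median of -0.26, which became 0.045 without the first labeled-off liver library. The median difference was -0.58 for 11 EMT transcription factors, -0.58 for 16 mesenchymal genes, -0.48 for 29 matrix enzymes and inhibitors, -0.46 for 23 collagen genes and -0.53 for 23 proteoglycan and hyaluronan genes. Few members passed an unadjusted p under 0.05: none of the EMT factors or mesenchymal genes, Adam12 (-1.58 ± 0.58) among the matrix enzymes, and Col4a4 (-1.71 ± 0.64) among the collagens. Of the proteoglycan and hyaluronan genes Gpc4 and Has2, described above, and Acan, the cartilage proteoglycan (-7.06 ± 2.28), did. Acan stood at 112, 7.5 and 5.85 CPM in labeled-off liver and at 0.749 to 5.35 CPM in labeled-on liver, with at most 1.84 CPM in pancreas, so the first labeled-off liver library was again far above the others. In the liver alone 8 of the 11 EMT factors and 9 of the 16 mesenchymal genes were lower at that threshold, against 8.65% of all genes, and in the pancreas 1 and 4, against 4.32%. Without the first labeled-off liver library the median of the EMT factors moved to -0.11, and without the libraries with mt-Co3 counts all 11 were negative and 3 passed. The liver count of 8 EMT factors became 4 and 11 in these settings. Among integrins, Itga7, a laminin receptor subunit, was the member of lowest p (2.03 ± 0.49, 95% interval 0.94 to 3.11). It read 24.3 and 21.5 against 8.86 to 12.4 CPM in pancreas and 5.67 to 14.2 against 15.2 to 26.1 CPM in liver, labeled off and on, and was called in neither. Itgb3 passed the unadjusted threshold in the other direction (-0.99 ± 0.40). Its level in liver was 3.97-fold lower labeled on (adjusted p = 0.0372, edgeR). The median of the 16 integrins was -0.23.

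Of 40 genes of G2 and mitosis, 39 had a negative difference (median -0.56) and none had an unadjusted p under 0.05. In the liver 26 of the 40 were lower at that threshold and in the pancreas 2, with medians of -0.74 and -0.16, beside 8.65% and 4.32% of all genes. Over all 16938 genes 8923 had a negative difference. Without the first labeled-off liver library all 40 were negative and 9 passed in the difference, where 478 of all 16349 genes did so in that direction, and without the libraries with mt-Co3 counts 37 were negative, 1 passed and the liver count was 17. Ccnb2, a mitotic cyclin, and Cenpa, the centromeric histone, had differences of -0.78 ± 0.35 and -0.73 ± 0.35. Of 32 S-phase genes 25 were negative (median -0.14) and 1 passed, Rrm2.

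Rrm2, the small subunit of ribonucleotide reductase, stood at 46.6 and 45.9 CPM against 55.3, 40.3 and 43 CPM in pancreas, where the groups overlapped. In liver it stood at 126, 117 and 91.1 CPM labeled off and at 48.7, 56.3 and 43.4 CPM labeled on, a fall of 2.25-fold (adjusted p = 0.0376, edgeR) to the level of the pancreas libraries. The difference was -1.17 ± 0.25 (adjusted p = 0.836, edgeR), and its range over the alternatives was -1.30 to -1.02. Cdkn2d, an inhibitor of the cyclin D kinases, had -0.58 ± 0.20.

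All 13 genes of class I antigen presentation had a positive difference, with a median of 0.43, the highest of the 30 lists. The members with an unadjusted p under 0.05 were 2, Tap2 and Psmb8, against 1.65% of all genes in that direction, and 4 passed without the first labeled-off liver library. In the liver 11 of 13 were higher at that threshold against 7.31% of all genes, and in the pancreas 3 of 13 against 6.08%. Psmb8, an immunoproteasome subunit, stood at 14.3, 12.8 and 20 CPM against 40.3, 25.1 and 46.2 CPM in liver and at 11.4 and 8.93 against 6.91 to 13.9 CPM in pancreas. The difference was 1.20 ± 0.45 (95% interval 0.20 to 2.21). Tap2, a subunit of the peptide transporter, had 1.06 ± 0.37 (95% interval 0.24 to 1.89). The 13 macrophage markers had a summed level of 164 to 248 CPM in labeled-off and 266 to 563 CPM in labeled-on liver and 196 to 324 against 347 to 397 CPM in pancreas. Cd14 gave much of these sums, with 76.9 to 177 against 175 to 364 CPM in liver and 91 and 111 against 173 to 200 CPM in pancreas. Csf1r, Adgre1, C1qa, C1qb and C1qc overlapped between the labels in both organs. Of the 12 macrophage markers tested, 11 had a positive difference, with a median of 0.37, and 0 had an unadjusted p under 0.05 for it. At that threshold 3 were higher in the liver and 1 in the pancreas. The part of the macrophage markers in the result was not tested. The hosts lack mature T cells, and lymphoid markers summed to at most 6.79 CPM.

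**Figure D4:**
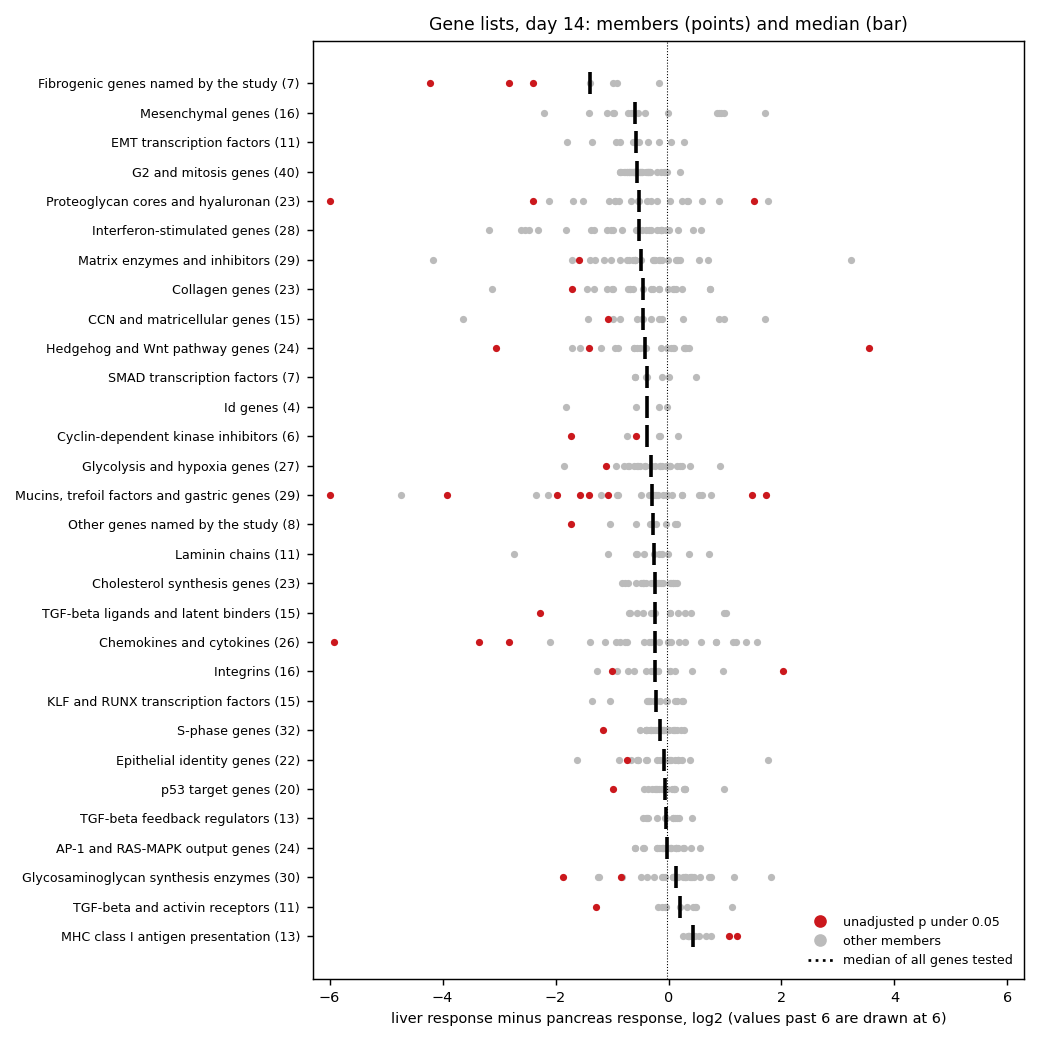
Difference between the liver and pancreas responses (x axis, log2) for each member of 30 gene lists (y axis, number of genes tested in parentheses), with members at an unadjusted p under 0.05 in red, the list median as a bar and the median of all genes dotted. The fibrogenic genes have the lowest median, -1.39, and the class I antigen presentation genes the highest, 0.43.

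Of 29 mucin, trefoil and gastric genes, 19 were higher in the pancreas and 10 in the liver at an unadjusted p under 0.05 (6.08% and 7.31% of all genes), with medians of 0.92 and 0.77. The carcinoma markers summed to 4740 and 4970 CPM in labeled-off and 6500 to 8810 CPM in labeled-on pancreas, and to 15800 to 17200 against 15300 to 17200 CPM in liver, and their part in these values was not tested. Muc13, Tff2 and Tff3 were called as higher in the pancreas by edgeR, and Muc13 in the liver. Tff2 and Tff3 were higher in the liver as well, 2.46-fold and 3.36-fold, and were not called there. In the difference 21 were negative, 6 of them passing the unadjusted threshold, and 2 positive ones passed, Anxa10 and Muc4. Tff2, a trefoil peptide of gastric mucous cells, stood at 55 and 54.8 CPM against 349, 429 and 419 CPM in pancreas and at 369, 684 and 489 CPM against 1820, 780 and 1200 CPM in liver. Groups did not overlap in either organ, and the labeled-on pancreas reached the level of the labeled-off liver. The ratio was 7.26 in pancreas (adjusted p = 0.0225, edgeR) and 2.46 in liver (adjusted p = 0.0815, edgeR), a difference of -1.56 ± 0.46 (95% interval -2.59 to -0.53). Tff3, the trefoil peptide of intestinal goblet cells, likewise rose from 1.84 and 2.68 to 15.5 to 24.5 CPM in pancreas and read 61.3 to 116 against 175 to 366 CPM in liver (difference -1.40 ± 0.50). Pgc, the gastric proenzyme pepsinogen C, is not on the list and was named after its values were seen. It rose from 0.258 and 0.355 to 3.63 to 3.95 CPM in pancreas (adjusted p = 0.0225, edgeR) and read 8.32 to 12 against 10.1 to 26.8 CPM in liver, where the groups overlapped.

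Anxa10, an annexin of gastric epithelium, had the opposite sign of difference. It stood at 17.4 and 17.2 CPM against 6.84, 12 and 16.5 CPM in pancreas and at 30.1, 33.2 and 27.8 CPM against 50.5, 82 and 39 CPM in liver (difference 1.47 ± 0.48, 95% interval 0.41 to 2.53). Cldn18, the gastric claudin, and Gkn1, a gastrokine, had differences of 0.07 and -0.02, with wide intervals (-3.06 to 3.20 and -2.26 to 2.22). In labeled-off pancreas Gkn2 had 0 counts, so its fold is a lower bound, and the list medians did not move when it was set to the floor.

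**Figure D5:**
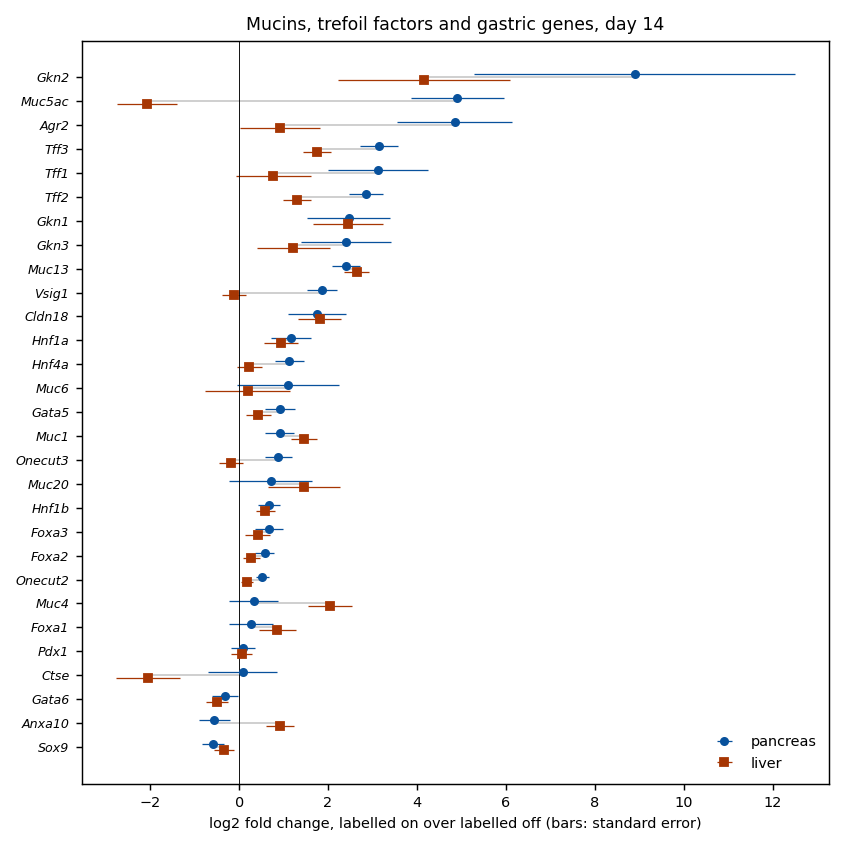
Log2 fold change (x axis, labeled on over labeled off, bars are standard errors) of 29 mucin, trefoil and gastric genes (y axis) in the pancreas (circles) and liver (squares) at day 14. Muc5ac and Vsig1 have a positive change in the pancreas (4.91 and 1.86) and a negative one in the liver (-2.08 and -0.12), while the values of Muc13, Cldn18 and Gkn1 lie close together. The value of Gkn2 in the pancreas depends on the prior count.

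The 28 interferon-stimulated genes had a median of -0.51, which became 0.39 without the first labeled-off liver library. For the 27 glycolysis and hypoxia genes the median of -0.31 became 0.37 without it, so the direction of both lists rested on that library. Car9, a hypoxia-induced carbonic anhydrase, had -1.10 ± 0.39. The medians were -0.05 for 20 p53 targets, -0.25 for 23 cholesterol synthesis genes, -0.02 for 24 AP-1 and RAS-MAPK genes, -0.42 for 24 Hedgehog and Wnt genes and -0.08 for 22 epithelial identity genes. Perp, a p53 target of desmosomes, had -0.99 ± 0.28 and Krt19, a ductal keratin, -0.73 ± 0.31.

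The same difference in day 7 libraries, which are separate samples, was read for the genes above. One of its 2 labeled-off liver libraries, the only one labeled paired-end, stood apart: it held 134 CPM of Tenm3, 74.8 CPM of Gpc4, 2.91 CPM of Akr1c19 and 10.7 CPM of Vsig1, where the other labeled-off liver library of that day held 25.9, 1.78, 33 and 91.8 CPM. Its fibroblast and stellate cell markers summed to 30800 CPM against 340 CPM in the other, its carcinoma markers to 3660 against 13400 CPM, and all 16 acinar markers had counts against 9. In the pancreas libraries of that day the fibroblast sum was 11500 to 24800 CPM and the carcinoma sum 2930 to 5180 CPM. If its organ label were wrong, day 7 values that include it would not be a liver minus pancreas difference. At day 7 edgeR called 133 genes (0.814% of 16344), 58 higher (0.355%) and 75 lower (0.459%) in the liver response, and 215 (1.29%) without the paired-end library. Leaving out each library in turn moved the count from 0 to 3109. At an unadjusted p under 0.05 there were 20.4% of the genes, and 18.9% without the paired-end library.

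Of the 701 day 14 genes, 667 were tested at day 7. The sign was the same for 64.3%, against 57.1% over all genes, and 181 had the same sign with an unadjusted p under 0.05 against 27 with the opposite one. Over all 16068 genes tested on both days these were 2305 and 978. Without the paired-end library 508 of 677 had the same sign, against 10127 of 16166 over all genes. Of the 12 genes of lowest p, 5 kept their sign, and 7 did without the paired-end library. The difference of Gli2 was 0.47 (adjusted p = 0.887, edgeR) at day 7 and 4.30 without that library, since it held 6.43 CPM of Gli2 against 0.223 CPM in the other. Ccbe1 had -3.11 at day 7, Has2 -3.33, Cdkn1c -2.30 and Itga7 2.03, each with the sign of day 14 and an unadjusted p under 0.05. Without the paired-end library these differences were -3.49, -3.02, -1.90 and 3.24. Rrm2 had -0.41 at day 7 (unadjusted p = 0.4, edgeR). All day 7 values and counts without the paired-end library rest on a single labeled-off liver library, so that group had no replicate there.

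The difference of Muc5ac was -6.99 at day 14 and 7.18 at day 7 (adjusted p = 0.141, edgeR), or 7.25 without the paired-end library. It stood at 16.2, 13.8 and 11.4 CPM in the labeled-on liver at day 7 and at 0.489 to 0.779 CPM at day 14. Pgc likewise had -2.65 at day 14 and 4.05 at day 7 (adjusted p = 0.0798, edgeR). The list of 29 mucin, trefoil and gastric genes had a median of -0.30 at day 14 and 0.93 at day 7, or 0.38 without the paired-end library. At day 7 its members with an unadjusted p under 0.05 were 8 higher and 0 lower. Over all 16068 genes 1651 were higher and 1632 lower at that threshold. For the G2 and mitosis genes the medians were -0.56 at day 14 and 0.19 at day 7, or -0.12 without that library. At day 7 3 of the 40 were higher and 0 lower at that threshold, to be read beside the same counts over all genes. Whether the difference itself changed between the days was not tested.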

How the data were processed

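RNA of sorted mKate2+ cells was polyA-selected and sequenced on a stranded protocol. Per the labels and the submitters' processing notes, the authors used Trimmomatic 0.36, STAR 2.5.3a, featureCounts 1.6.3 and FastQC 0.11.5 with GRCm38 (mm10), and deposited raw counts per gene for all 35 libraries, with no normalization. The featureCounts strand setting is not given in the sources used here. Totals of the 11 day 14 libraries were 12200163 to 36142368 counts. Intervals and floors from counts cover counting error only.

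From these counts edgeR 4.0.16 (R 4.3.3) was fitted to the 11 libraries with 1 term per group, after filterByExpr (minimum count 10, minimum total 15) and TMM normalization, with a robust quasi-likelihood fit. Standard errors were taken from the coefficient and its F statistic. A gene was called at a difference of over 2-fold with a Benjamini-Hochberg adjusted p under 0.05. CPM values are TMM-normalized, except marker sums, which use library totals. DESeq2 1.42.0, limma 3.58.1 voom, other filters, normalizations and sample sets were run as alternatives. No 2 libraries held identical values, and 0 columns were unmatched. The labels do not tie libraries to litters or cell lines, so p-values measure the spread between these samples.

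The genes, lists and tests were chosen with earlier results of these data known. Named were Smad4, the 6 genes of lowest p in each direction with a difference of over 2-fold, up to 2 members of lowest p per list, and all genes the study named. Predicted genes, RIKEN clones and pseudogenes were counted and not named, and some items are not reported here. Genes marked as named after their values were seen fall outside this rule. So do the list members Acan, Anxa10, Tff2, Tff3, Muc4, Cldn18, Gkn1 and Gkn2, which carry no such mark above. They were not set in advance by the rule, and Acan, Anxa10 and Tff3 were chosen after their values were seen. The scripts were tested on simulated data.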

Additional observations from a re-analysis of the deposited data

Results flagged for a closer look

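The test of the difference between organs picked out 2 sets of genes. At day 14 DESeq2 called 40 genes where edgeR's quasi-likelihood test called 0, and DESeq2's count ran from 5 to 97 as single libraries were left out. It was 5 without either labeled-off pancreas library, 15, 18 and 14 without labeled-on pancreas replicates 1, 2 and 3, and 97 without labeled-off liver replicate 3. The day 7 libraries gave 133 calls in edgeR, 58 higher in the liver response and 75 lower, and this count ran from 0 to 3109 as single libraries were left out. The groups of 2 and 3 libraries were not tested for single outlying libraries.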

How the results depend on the processing

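The count of genes called as responding differently at day 14 was 0 in edgeR with RLE size factors, at least 10 counts in every library, no fold threshold, the single fit of 35 libraries, the replicate block, the mt-Co3 covariate, without the liver libraries with mt-Co3 counts and without each library in turn, and in voom with a weight for each organ. It was 40 in DESeq2, 1 in voom with sample quality weights, 3 with no filter, 158 in DESeq2 without the liver libraries with mt-Co3 counts, and 5 to 97 in DESeq2 without each library in turn. The 46 pancreas calls became 329 (DESeq2, 45 of the 46 kept), 990 (voom), 81 (no filter), 16 (35 libraries), 132 (mt-Co3 covariate), 788 (voom by organ), 129 and 508 (edgeR and DESeq2 without the libraries with mt-Co3 counts), 661 (pancreas alone) and 0 to 127 (leaving out each library). The 47 liver calls became 619 (DESeq2, all 47 kept), 78, 151, 119 (at least 10 counts), 254, 268, 6, 268, 1121, 0 (liver alone) and 9 to 434 in the same order of settings. These counts changed as single libraries were left out, also where the library was of the other organ. The pancreas count was 0 without either labeled-off library, 6, 4 and 4 without labeled-on replicates 1, 2 and 3, and 127 and 75 without labeled-off liver replicates 1 and 3. That of the liver was 28, 29 and 434 without labeled-off liver replicates 1, 2 and 3, 10 and 156 without labeled-on liver replicates 1 and 2, and 9 to 14 without any 1 pancreas library. The 133 day 7 calls became 1460 (DESeq2), 215 (without the paired-end library), 891 (35 libraries), 532 (mt-Co3 covariate) and 0 to 3109 (leaving out each library), with 3109 without labeled-off liver replicate 1, 0 without any 1 pancreas library or labeled-on liver replicate 2, and 2 and 59 without labeled-on liver replicates 1 and 3. The cause was not tested. The settings without the libraries with mt-Co3 counts, voom by organ, 1 organ alone and DESeq2 without each library were chosen after seeing the data.

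With the replicate number within organ as a block, edgeR called 0 genes in the pancreas, 1 in the liver, 0 in the difference and 0 at day 7. Same-numbered libraries deviated together at r = 0.0461 and 0.0899 in pancreas and 0.0752, 0.0547 and 0.536 in liver, and not every library correlated best with its own number, so the numbers were not taken as pairs.

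Of 118 named genes, 11 changed sign under some alternative: Gstm5 (-0.22 in voom, -0.057 and -0.039 in edgeR and DESeq2 without the liver libraries with mt-Co3 counts), Klf5 (0.16, 0.017 and 0.036 in the same settings), Klf6 (0.0088 in DESeq2 without those libraries), Id4 (0.64 in voom), and, only when single libraries were left out, Id1, Klf4, Muc13, Pax9, Runx1, Runx2 and Wisp1. When single libraries were left out, in edgeR and DESeq2, the values ran from -0.069 to 0.39 for Gstm5, -0.97 to 0.11 for Id1, -2.87 to 4.16 for Id4, -0.23 to 0.42 for Klf4, -0.22 to 0.096 for Klf5, -0.55 to 0.13 for Klf6, -0.00060 to 0.50 for Muc13, -0.078 to 0.21 for Pax9, -0.035 to 0.31 for Runx1, -0.80 to 0.26 for Runx2 and -1.80 to 0.37 for Wisp1. TMM and RLE put the median of all genes at -0.03 and -0.04. With groups of 2 and 3, depth limits genes near the floor of 0.083 to 0.246 CPM.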

Other observations

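The genes given here were called in the pancreas response and were named after their values were seen. Abcc8 and Kcnj11 code for the subunits of the ATP-sensitive potassium channel of islet cells and neurons. Abcc8 stood at 0.0737 and 0.129 CPM in labeled-off pancreas, at 1.71, 1.89 and 4.42 CPM in labeled-on pancreas, at 3.45, 3.28 and 5.85 CPM in labeled-off liver and at 16.4, 11.1 and 10.6 CPM in labeled-on liver. In the same order of groups Kcnj11 read 0.332 and 0.323, 1.84 to 4.58, 2.07 to 3.85 and 5.81 to 10.3 CPM. For both genes the label groups did not overlap in either organ. The difference between the organs was -3.03 ± 0.72 for Abcc8 (adjusted p = 0.873, edgeR) and -1.97 ± 0.63 for Kcnj11 (adjusted p = 1, edgeR). The 6 islet markers summed to 18.2 to 36 CPM in labeled-off and 30.7 to 35.2 CPM in labeled-on pancreas, and to at most 4.8 CPM in liver. In the liver Ins1 was at 0 in all 6 libraries.

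Gsta4, a glutathione S-transferase, stood at 73.4 and 62.5 CPM in labeled-off pancreas, at 182 to 208 CPM in labeled-on pancreas and at 420 to 890 CPM over all liver libraries. Gclc, the catalytic subunit of the first step of glutathione synthesis, stood at 54.8 and 55.7 CPM, at 117 to 172 CPM and at 170 to 253 CPM. Gstm5, also a glutathione S-transferase, had another pattern, with 22.9 and 20.9 CPM in labeled-off pancreas, 66 to 85.9 CPM in labeled-on pancreas, 13.9 to 24.9 CPM in labeled-off liver and 57.5 to 79.7 CPM in labeled-on liver. Hepatocyte markers, 16 in number, summed to 10.6 to 12.2 CPM in labeled-off pancreas, to 35.7 to 68 CPM in labeled-on pancreas and to 60 to 356 CPM in liver. Ambp alone gave 8.3 and 8.82, 25.8 to 54.9 and 34.9 to 306 CPM of these sums, and Cyp2e1, Cps1 and Apoc3 were at 0 in all 5 pancreas libraries. Their part in these values was not tested.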
